A study of Mus musculus with 8 samples.

Results

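CpG methylation was examined at 6 genes of the Notch pathway: the receptors Notch1, Notch2, Notch3 and Notch4, and Dtx1 and Hes1, both targets of the activated receptor. The genes were chosen by name, with earlier results of these data known. Each was taken as its GENCODE M21 gene body with 10 kb added on both sides, on the mouse genome GRCm38. They are 6 of 20621 protein-coding autosomal genes whose region could be tested. The data come from whole-genome bisulfite sequencing of lymphocytes from the spleens of C57BL/6J mice, an inbred strain, at 6 to 8 weeks of age. Resting B cells were selected as CD43- cells, and naive T cells were sorted as CD4+, CD62L high, CD44 low and CD25-. The labels name no treatment and no engineered allele, and the cells of several animals were pooled. The 8 samples form 4 groups of 2, namely B cells and T cells from either sex, and each group was represented by 1 file. It is not stated whether a file combines the 2 samples of its group or comes from 1 of them, so a difference between B and T cells was seen once in females and once in males.

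Notch receptors are single-pass membrane proteins that are activated by Delta-like or Jagged ligands on a neighbouring cell. Ligand binding leads to cleavage by an ADAM protease and by gamma-secretase, and the released intracellular domain binds RBPJ on DNA and turns on target genes. Notch1 signalling commits progenitors in the thymus to the T lineage and stops B cell development there, whereas Notch2 is required for marginal zone B cells in the spleen. Hes1 encodes a transcriptional repressor of the basic helix-loop-helix family, and Dtx1 encodes Deltex 1, a ubiquitin ligase that modulates Notch signalling. Bisulfite sequencing reads 5-methylcytosine and 5-hydroxymethylcytosine alike. It measures DNA only, and no RNA level of any gene was examined here. In a pool of cells, an intermediate level can come from a mixture of cells or of alleles, and these cannot be told apart.

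The files held 278275973 to 339923001 autosomal CpG reads, a mean of 14.6 to 17.7 reads per CpG, and 18216084 autosomal CpGs were covered by at least 5 reads in every file. The 6 gene regions contained 423 windows of 1 kb with at least 3 such CpGs. The median number of CpG reads in these windows was 178 in the shallowest file and 233 in the deepest. The 95% Wilson interval of a level, which covers counting error only, had a median width of 10.8 points in the windows described below (1.63 to 28.5) and of 5.09 points in the promoters. Windows and promoters were called different when the quasi-binomial model gave an adjusted p under 0.05 and the mean difference between B and T cells was 20 percentage points or more. With 1 file per group the model has 1 residual degree of freedom and borrows the spread from other regions, for windows from the 1169323 with enough methylated and unmethylated reads. An exact permutation of 2 files against 2 cannot give a p below 0.333, so none was run. The identity of the cells was checked at promoters of marker genes. All 5 B cell markers had lower methylation in B cells, and all 5 T cell markers had higher methylation in B cells. Of 10 markers of other spleen cells, Cd8a and Cd8b1, which mark CD8 T cells, were lower in the T cell files, at 69.0% and 39.5% against 89.9% in B cells for both, and the other 8 were not called. Among these, the myeloid marker Lyz2 was at 46.1% in B cells and 65.4% in T cells, with an adjusted p of 0.0443 and a difference of -19.3 points, just under the limit of 20. Fcer2a, a marker of follicular B cells, was called lower in B cells (42.6% against 84.8%), and the marginal zone markers Cr2, Cd1d1 and S1pr3 were not called.

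The starts of the genes were described first. The sequences upstream of the starts of Notch1, Notch2 and Notch4 are shown because they span the range of CpG content among the receptors. They are taken from RefSeq (GRCm38.p6), in which 5 of the 6 genes have an entry, and are written 5′ to 3′ on the strand of the gene with the CpGs in capitals. The stretches lie at chr2:26503823-26504072 (minus strand), chr3:98013288-98013537 (plus strand) and chr17:34564045-34564267 (plus strand).
Notch1: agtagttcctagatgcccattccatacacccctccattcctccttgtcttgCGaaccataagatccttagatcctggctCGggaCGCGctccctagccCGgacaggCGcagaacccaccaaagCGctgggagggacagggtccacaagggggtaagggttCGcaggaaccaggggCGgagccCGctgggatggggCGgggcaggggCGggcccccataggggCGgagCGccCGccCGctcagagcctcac
Notch2: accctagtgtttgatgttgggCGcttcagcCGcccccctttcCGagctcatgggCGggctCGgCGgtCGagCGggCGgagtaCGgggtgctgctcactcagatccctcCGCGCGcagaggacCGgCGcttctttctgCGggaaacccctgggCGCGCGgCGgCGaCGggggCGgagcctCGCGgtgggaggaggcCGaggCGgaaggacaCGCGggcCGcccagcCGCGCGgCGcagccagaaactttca
Notch4: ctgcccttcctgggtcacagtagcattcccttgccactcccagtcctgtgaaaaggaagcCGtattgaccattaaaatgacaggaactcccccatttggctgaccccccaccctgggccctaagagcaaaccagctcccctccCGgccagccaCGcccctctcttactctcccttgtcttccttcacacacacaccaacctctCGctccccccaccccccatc

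The Notch2 stretch held 34 CpGs and the Notch1 stretch 16, whereas the Notch4 stretch held 4. Methylation over the Notch1 stretch was 0.360% in female B cells and 0% in the other 3 files. The levels of 0% rest on 330 reads for T cells of females, 217 for B cells of males and 221 for T cells of males, which allow up to 0.909%, 1.38% and 1.36%. Over the Notch2 stretch the level was 0% in both female files, from 471 reads in B cells and 382 in T cells (up to 0.637% and 0.785%), whereas the male files had 0.238% for B cells and 0.344% for T cells. The stretches of Notch1 and Notch2 were thus nearly free of methylation in every file. This did not hold for Notch3, whose stretch is not printed and held 17 CpGs, 13 of them measured. It was at 17.0% and 18.1% in B cells of females and males and at 9.72% and 11.4% in T cells of females and males, from 94 to 176 reads. The Notch4 stretch was 20.9% and 36.6% methylated in B cells of females and males and 36.4% and 42.5% in T cells of females and males, from 40 to 67 reads.

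Over the whole promoter, defined as 1 kb on both sides of the annotated gene start, levels were lowest at Hes1 and highest at Notch4. Hes1 was at 0.291% in B cells and 0.455% in T cells of females, and at 0.503% in B cells and 0.199% in T cells of males. The Notch2 promoter came next, at 5.46%, 5.71%, 4.55% and 4.02% in the same order. Dtx1 had 17.0%, 12.5%, 13.3% and 13.2%, so that female B cells were the highest of the 4 files. The mean of B minus T at Dtx1 was 2.33 points. It was 0.276 points with a minimum of 10 reads per CpG and -0.472 points with 500 bp on both sides of the start. The 3 other receptors had intermediate or high levels. At Notch3 they were 28.6%, 29.0%, 32.4% and 28.6%, and at Notch4 they were 64.5%, 70.3%, 72.1% and 71.5%. Notch1 was at 44.9%, 42.8%, 46.4% and 48.5%, but its annotated start belongs to another transcript, which begins upstream of the principal one. Around the principal start at chr2:26503822 the Notch1 levels were 4.37%, 2.88%, 2.76% and 2.52%. The order of the promoters by level was the same in all files for Hes1, Notch2, Dtx1, Notch3, Notch1 and Notch4, and the 95% Wilson intervals of neighbours in this order did not overlap within any file.

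None of the 6 promoters was called different between B and T cells. The Notch1 promoter reaches partly into a 1 kb window that was called (chr2:26517001-26518000, 28.2 points higher in B cells), described below. The model called 0 of 6, against 188 of 20255 promoters of all genes (0.928%), and 0 of 6 fell below a p of 0.05 before adjustment. Both limma on log2 ratios and Fisher's exact test within each sex also called 0 of 6. The largest mean difference was -2.57 points at Notch4 (adjusted p 0.823), where the female difference was -5.73 points and the male difference 0.583 points. Around the Notch1 principal start the mean difference was 0.868 points (adjusted p 0.477).

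**Figure D1:**
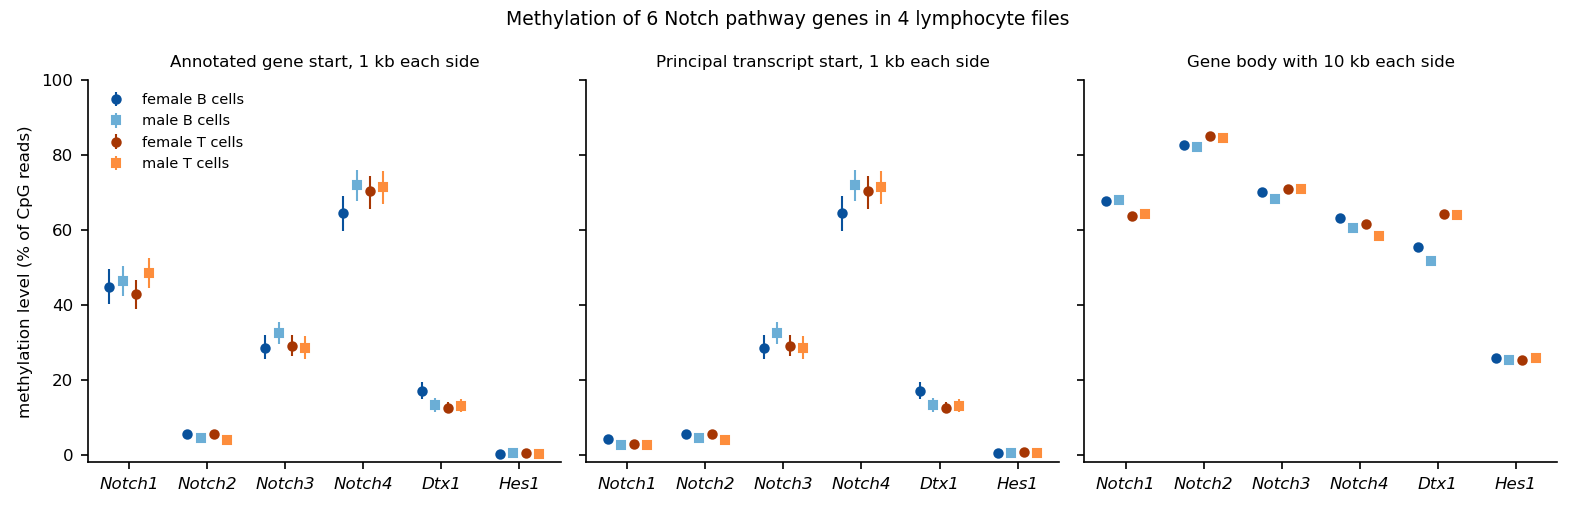
Methylation level (% of CpG reads) of the 6 genes in each of the 4 files, over 1 kb on both sides of the annotated gene start (left), over 1 kb on both sides of the principal transcript start (middle) and over the gene body with 10 kb on both sides (right). Circles are female and squares male files, blue is B and orange is T cells, and bars are 95% Wilson intervals of counting error. No promoter was called different, including that of Dtx1, where female B cells are the highest file. The B cell files lie below the T cell files over the Dtx1 region (55.5% and 51.8% against 64.3% and 63.9%).

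The low stretch around the start differed in length among the genes. Counting consecutive windows with a level of 20% or less in all files, Hes1 had 5 windows with 296 CpGs (chr16:30063001-30068000), which take in the whole gene, and no level among them exceeded 8.18%. Notch1 had 3 windows with 170 CpGs at its principal start (highest level 15.4%), and none at its annotated start. Notch2 had 2 windows (highest 14.0%). Notch3 and Dtx1 had 1 window each, with highest levels of 0.911% and 3.58%. Notch4 had no window this low at its start.

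Over the whole gene regions, starts included, 35 of the 423 windows (8.27%) were called. Over all autosomes 41430 of 1950708 windows were called (2.12%), with 1.19% higher in B cells and 0.934% lower, and the share was 2.82% among windows within 10 kb of a protein-coding gene. Of the 35 windows, 11 were higher in B cells (2.60% of the 423) and 24 were lower (5.67%). In all 35 both sexes had a difference of one sign and the B and T cell files did not overlap, which the limit of 20 points favours. No share of such windows among all called windows is given, so this only describes the 35. With limma on log2 ratios, which does not weigh windows by read depth, 17 windows were called, 7 higher and 10 lower in B cells. The shares over all autosomes come from the quasi-binomial model, and none is given for limma. Over all 423 windows the median of B minus T was -0.852 points, beside 0.0473 points over all windows tested.

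Notch1, the receptor of T lineage commitment, had 11 called windows of 78 (14.1%), of which 9 were higher in B cells. The window with the largest difference covered exons 25 and 26 of the principal transcript (chr2:26468001-26469000, 26 CpGs). It was methylated at 97.9% in female B cells and 96.7% in male B cells, and at 42.0% and 42.5% in T cells of females and males, from 422, 583, 593 and 661 reads. The mean difference of 55.1 points had an adjusted p of 4.09e-149 in the quasi-binomial model and of 0.00429 in limma. B cells were nearly fully methylated here, and T cells were at an intermediate level.

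In the same direction, 5 of the 16 windows of intron 2 were called, and the one nearest the start also covers exon 2 and a part of intron 1. These 5 windows lie between chr2:26494001 and 26502000, at 2.32 to 9.32 kb downstream of the principal start. In the window at chr2:26498001-26499000 B cells of females and males had 63.6% and 61.6%, and T cells of females and males 23.5% and 21.0%. In the window at chr2:26494001-26495000 the levels were 58.2% and 54.1% in B cells and 20.8% and 14.7% in T cells. The mean differences were 40.4 and 38.4 points. The remaining 3 windows of this group had differences of 21.1 to 24.7 points. Upstream of the annotated start, the adjoining windows at chr2:26517001-26518000 and chr2:26518001-26519000 had 93.4% and 91.2% in female B cells, 97.2% and 92.5% in male B cells, 64.7% and 62.5% in female T cells and 69.5% and 64.5% in male T cells. The last of the 9 windows, in intron 33, was higher in B cells by 27.3 points. limma called 6 Notch1 windows higher in B cells, the 5 whose levels are given here and 1 other, so that at most 1 of the remaining 4 kept its call.

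The direction was opposite at 2 Notch1 windows. In intron 4 (chr2:26483001-26484000), 20.3 kb downstream of the principal start, B cells were at 3.35% in females and 4.62% in males, whereas T cells were at 30.7% and 38.9%. The difference was -30.8 points (adjusted p 4.10e-30, limma 0.0120). B cells were almost unmethylated in this window, and T cells were at an intermediate level. At chr2:26525001-26526000, upstream of the gene, the levels were 50.7% and 47.7% in B cells and 77.2% and 80.6% in T cells, a call that limma did not make (adjusted p 0.109).

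The 200 bases with the most measured CpGs are shown for the window in exons 25 and 26 and for the windows in introns 2 and 4, which carry both directions of difference at Notch1. They are read from GRCm38 on the plus strand, opposite to the gene, with CpGs in capitals, and lie at chr2:26468116-26468315, chr2:26494457-26494656 and chr2:26483241-26483440.
Notch1 exons 25 and 26: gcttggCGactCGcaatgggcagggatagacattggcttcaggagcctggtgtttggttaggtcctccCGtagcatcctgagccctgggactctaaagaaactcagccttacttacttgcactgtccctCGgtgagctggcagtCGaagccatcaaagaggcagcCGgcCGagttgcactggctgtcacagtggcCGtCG
Notch1 intron 2: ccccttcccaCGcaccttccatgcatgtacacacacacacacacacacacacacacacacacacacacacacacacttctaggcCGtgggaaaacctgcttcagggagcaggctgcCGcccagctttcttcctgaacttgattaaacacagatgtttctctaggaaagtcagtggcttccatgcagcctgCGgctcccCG
Notch1 intron 4: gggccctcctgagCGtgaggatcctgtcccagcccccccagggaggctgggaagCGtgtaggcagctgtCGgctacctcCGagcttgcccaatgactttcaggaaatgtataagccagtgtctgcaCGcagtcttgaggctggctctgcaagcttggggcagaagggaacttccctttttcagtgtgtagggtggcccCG

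The intron 4 stretch held 6 CpGs without a single methylated read in B cells, from 111 reads in females (up to 2.70%) and 104 in males (up to 2.88%), and its level was 27.7% and 38.9% in T cells of females and males. The 5 CpGs of the intron 2 stretch were at 46.2% and 52.2% in B cells of females and males and at 7.25% and 5.00% in T cells of females and males. The exon stretch had a smaller difference than its window, with 97.7% and 96.7% for B cells and 76.6% and 79.5% for T cells, and the lowest T cell levels lay towards the other end of the window.

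Notch2, the receptor of marginal zone B cells, also had 11 called windows, of 157 (7.01%), but 10 of them were lower in B cells. Intron 1 held 8 of the 10, among 35 windows tested there, between 3.96 and 33.0 kb downstream of the principal start. The largest difference was at chr3:98032001-98033000, where B cells were at 63.8% in females and 55.8% in males, and T cells at 100% and 98.3%. This window had only 3 CpGs and 43 to 59 reads per file, and its difference of -39.3 points had an adjusted p of 5.54e-10 (limma 0.00561). At chr3:98046001-98047000 (14 CpGs) the levels were 40.4% and 39.7% in B cells of females and males and 68.8% and 69.8% in T cells of females and males. At chr3:98025001-98026000 (22 CpGs) they were 33.0% and 35.2% in B cells and 61.8% and 56.9% in T cells. The window at chr3:98028001-98029000 had 70.4% and 68.8% in B cells and 94.7% and 92.0% in T cells. limma did not call the windows with 14 and 22 CpGs (adjusted p 0.140 and 0.219).

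Further downstream, the Notch2 window in intron 12 (chr3:98110001-98111000) was at 74.4% and 66.3% in B cells of females and males and at 96.3% in both T cell files. The single Notch2 window that was higher in B cells lay at exon 15 (chr3:98115001-98116000, 7 CpGs). Its levels were 87.9% and 92.2% in B cells and 63.4% and 52.6% in T cells, a difference of 32.0 points (adjusted p 1.31e-07, limma 0.0601) that was larger in males (39.7 points) than in females (24.4 points). Stretches from intron 1 and from exon 15 are shown as examples of both directions, at chr3:98025496-98025695 and chr3:98115244-98115443 on the plus strand of GRCm38, which is the strand of the gene, with CpGs in capitals.
Notch2 intron 1: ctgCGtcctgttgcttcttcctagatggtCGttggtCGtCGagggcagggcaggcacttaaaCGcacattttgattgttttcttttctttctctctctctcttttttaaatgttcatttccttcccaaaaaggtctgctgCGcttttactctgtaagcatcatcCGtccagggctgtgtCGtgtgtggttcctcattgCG
Notch2 exon 15: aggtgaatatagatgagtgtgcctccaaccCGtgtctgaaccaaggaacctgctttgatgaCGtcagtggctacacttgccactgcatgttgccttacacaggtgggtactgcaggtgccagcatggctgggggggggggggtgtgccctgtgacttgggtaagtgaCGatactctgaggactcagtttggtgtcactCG

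Over the 9 CpGs of the intron 1 stretch, B cells of females and males had 10.4% and 6.67% and T cells of females and males 49.4% and 40.9%. Over the 4 CpGs of the exon 15 stretch, B cells had 79.2% and 85.4% and T cells 20.5% and 12.5%, from 24 to 48 reads per file.

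**Figure D2:**
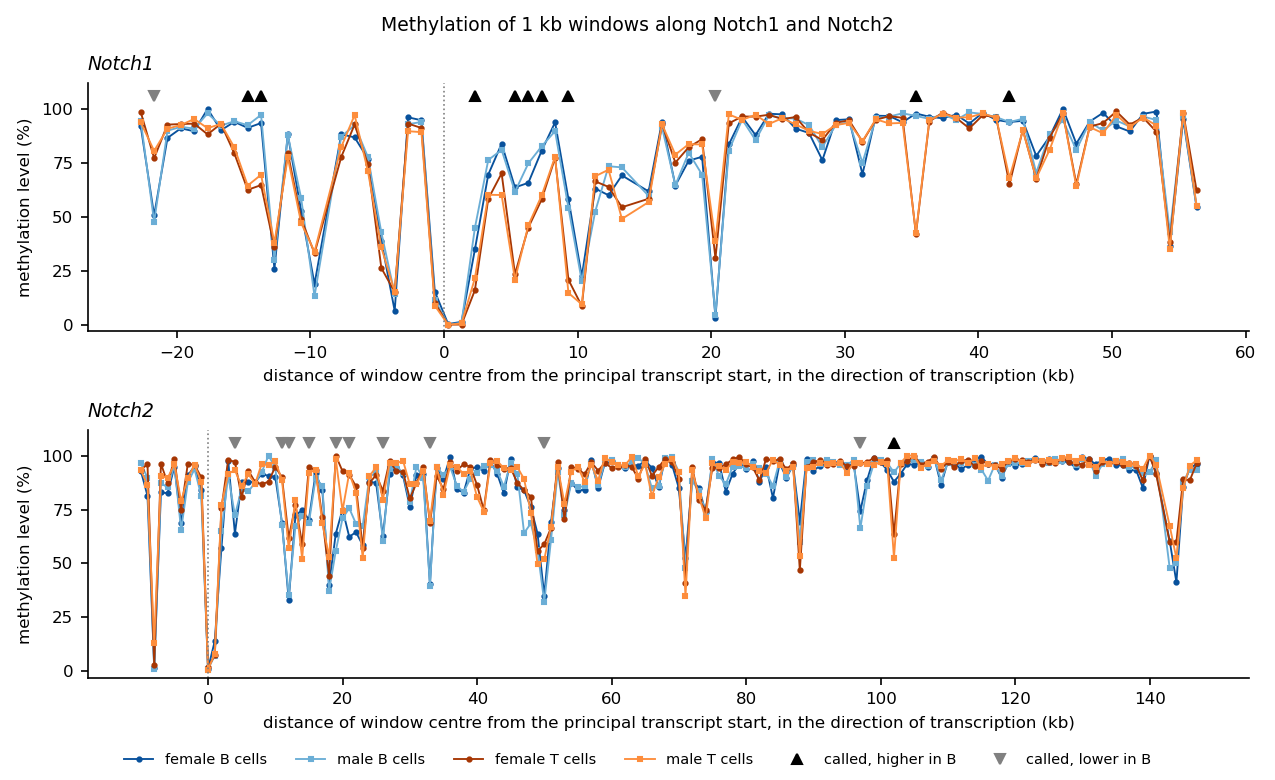
Methylation level (%) of 1 kb windows along Notch1 (top) and Notch2 (bottom) against the distance of the window centre from the principal transcript start in kb, with a dotted line at the start and a line for each of the 4 files. Triangles mark called windows, pointing up where B cells were higher (9 at Notch1, 1 at Notch2) and down where they were lower (2 and 10). T cell lines dip below B cell lines just downstream of the Notch1 start and at a single sharp trough 35.3 kb from it, and B cell lines dip below T cell lines at several points of the first 33.0 kb of Notch2.

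The 2 other receptors had 3 called windows between them, beside 2.82% of all windows near protein-coding genes. Notch3, known from vascular smooth muscle and from immature thymocytes, had 1 called window of 67 (1.49%). It covered exon 33, the last exon of the gene (chr17:32122001-32123000, 33 CpGs), and overlaps the antisense gene Gm17276. Its levels were 55.2% and 54.4% in B cells of females and males and 73.9% and 77.3% in T cells of females and males. The mean difference of -20.8 points is close to the limit of 20 points, and was -19.1 points without the male T cell file, so that the call was lost. limma did not call it (adjusted p 0.269).

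Notch4, an endothelial receptor, had 2 called windows of 45 (4.44%), both downstream of the gene body and inside neighbouring genes. At chr17:34590001-34591000, in Gpsm3, both B cell files were at 40.1%, whereas female T cells were at 2.87% and male T cells at 4.75% (36.3 points, adjusted p 4.20e-46, limma 0.00960). At chr17:34598001-34599000, in Ager, B cells had 57.3% and 58.8% and T cells 89.1% and 87.9% (-30.5 points, adjusted p 1.70e-19, limma 0.0470). No called window overlapped the 25 windows of the Notch4 gene body. A stretch of the Gpsm3 window is shown because its T cell level was close to 0 (chr17:34590456-34590655, plus strand of GRCm38, CpGs in capitals).
Notch4 downstream: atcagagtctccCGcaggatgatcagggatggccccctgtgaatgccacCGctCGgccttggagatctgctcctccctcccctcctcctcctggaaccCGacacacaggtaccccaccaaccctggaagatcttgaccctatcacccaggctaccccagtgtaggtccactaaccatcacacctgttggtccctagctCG

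Its 5 CpGs were at 55.3% and 42.1% in B cells of females and males and at 1.83% and 6.06% in T cells of females and males.

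**Figure D3:**
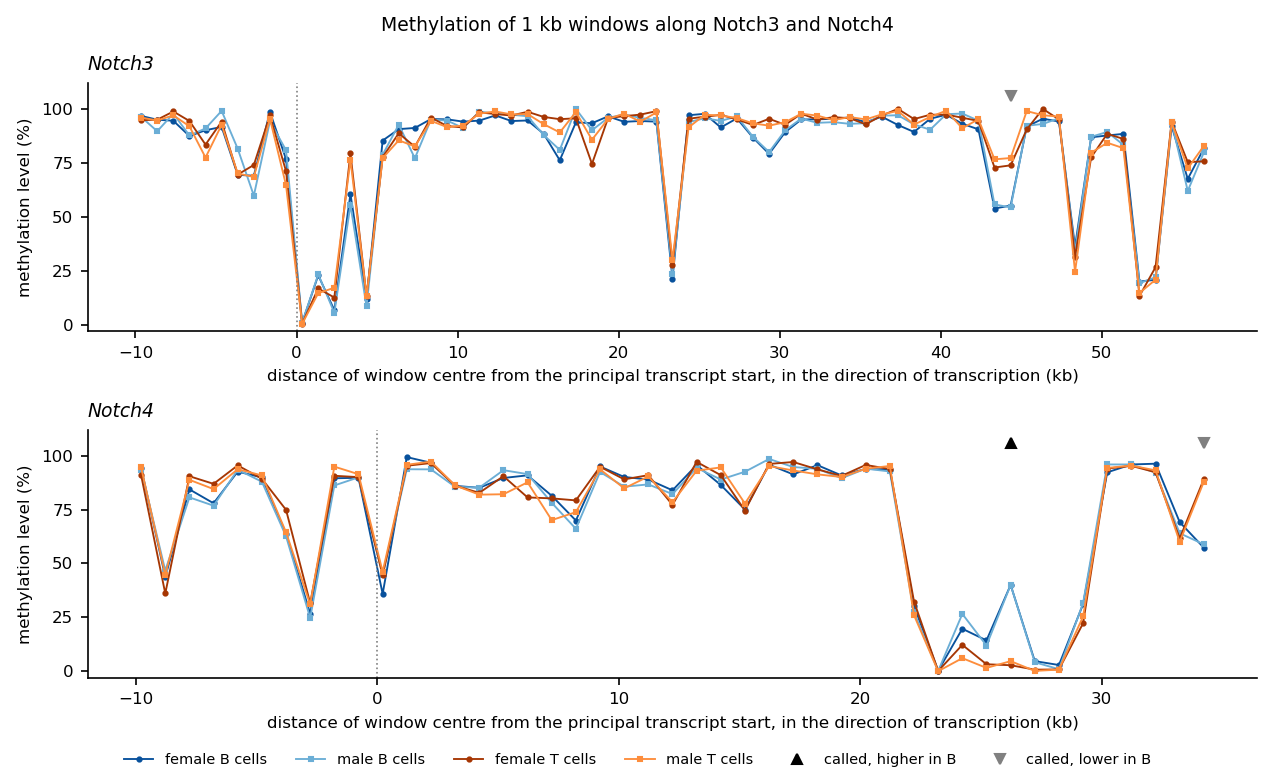
Methylation level (%) of 1 kb windows along Notch3 (top) and Notch4 (bottom) against the distance of the window centre from the principal transcript start in kb, with a line for each of the 4 files and triangles at called windows (pointing up where B cells were higher, down where they were lower). The 4 lines run together over most of both genes, and the 3 triangles lie 44.4 kb from the Notch3 start and 26.2 and 34.2 kb from the Notch4 start.

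Dtx1, the Deltex target, had 8 called windows of 52 (15.4%), and all 8 were lower in B cells. With limma 4 of the 52 were called, beside 7 of 78 at Notch1. All 8 lay in the gene body. The window with the largest difference of all 423 was in intron 2, at 7.43 kb from the start (chr5:120704001-120705000, 11 CpGs). Female B cells were at 17.4% (95% Wilson interval 12.8 to 23.4), male B cells at 16.2% (12.2 to 21.2), female T cells at 84.8% (80.0 to 88.7) and male T cells at 79.4% (74.0 to 84.0). The mean difference was -65.3 points, with an adjusted p of 3.98e-72 (limma 0.00651).

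A CpG-rich window that includes exon 3 (chr5:120694001-120695000, 68 CpGs) was at 2.10% and 2.28% in B cells of females and males and at 39.1% and 38.6% in T cells of females and males. It had 1050 to 1402 reads per file, the most among the named windows, and a difference of -36.7 points (adjusted p 1.36e-197, limma 0.00540). In intron 3, the window at chr5:120690001-120691000 was at 20% and 23.6% in B cells and at 64.4% and 61.2% in T cells (-41.0 points). Besides its start, Dtx1 thus had a CpG-rich stretch 17.4 kb downstream that was almost free of methylation in B cells and at an intermediate level in T cells.

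The other 2 named Dtx1 windows were also in intron 2. At chr5:120701001-120702000 B cells of females and males had 49.4% and 43.2%, and T cells of females and males 84.7% and 77.6%. At chr5:120706001-120707000 B cells had 28.1% and 28.6% and T cells 63.0% and 59.2%. limma called neither of these 2 (adjusted p 0.0578 and 0.0971). The remaining 3 windows had differences of -22.9, -28.2 and -32.1 points. Among these, the window next to the CpG-rich one differed by -13.4 points in females and -32.5 points in males. In intron 2 as a whole, B minus T was below 0 in 13 of 16 windows, and over the gene with its flanks in 39 of 52. It was below 0 in 17 of 24 windows at Hes1, 43 of 67 at Notch3, 98 of 157 at Notch2, 23 of 45 at Notch4 and 30 of 78 at Notch1. No share over all windows is given for this count, and the windows of a gene are not independent.

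Parts of Dtx1 are shown, at chr5:120704650-120704849 (intron 2), chr5:120694541-120694740 (exon 3 window) and chr5:120690505-120690704 (intron 3), on the plus strand of GRCm38, opposite to the gene, with CpGs in capitals, since these windows hold the largest differences of the gene.
Dtx1 intron 2: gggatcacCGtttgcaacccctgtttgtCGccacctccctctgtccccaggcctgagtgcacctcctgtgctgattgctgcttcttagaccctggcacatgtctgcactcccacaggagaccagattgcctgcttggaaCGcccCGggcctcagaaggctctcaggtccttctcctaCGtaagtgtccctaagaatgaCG
Dtx1 exon 3 window: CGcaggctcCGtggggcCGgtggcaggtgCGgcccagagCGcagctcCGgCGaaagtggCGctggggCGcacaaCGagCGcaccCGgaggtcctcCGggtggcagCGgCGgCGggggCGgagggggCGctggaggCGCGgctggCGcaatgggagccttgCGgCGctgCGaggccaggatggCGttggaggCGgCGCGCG
Dtx1 intron 3: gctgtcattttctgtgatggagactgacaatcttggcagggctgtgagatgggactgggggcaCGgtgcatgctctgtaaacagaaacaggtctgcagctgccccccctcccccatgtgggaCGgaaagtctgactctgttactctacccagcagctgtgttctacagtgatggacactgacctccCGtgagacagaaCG

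The intron 2 stretch held 6 CpGs, at 12.6% and 13.5% in B cells of females and males and 88.6% and 88.8% in T cells of females and males. The exon 3 stretch held 29 CpGs, with 0% from 334 reads in female B cells (up to 0.898%) and 0.358% in male B cells, against 25.6% and 31.2% in T cells. The intron 3 stretch held 4 CpGs, at 3.17% in female B cells and 0% from 66 reads in male B cells (up to 4.55%), against 75.0% and 73.4% in T cells.

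Hes1, the other target, had 2 called windows of 24 (8.33%), side by side and upstream of the gene at 4.84 and 3.84 kb from the principal start. At chr16:30060001-30061000 B cells of females and males had 42.9% and 44.4%, and T cells of females and males 65.1% and 66.4%. At chr16:30061001-30062000 they had 44.6% and 39.2% against 65.6% and 60.2%. The differences of -22.1 and -21.0 points had adjusted p of 1.05e-07 and 1.30e-05, limma called neither (0.286 and 0.320), and the second was at -18.3 points when either the T cell file of females or the B cell file of males was left out. These windows lie 1 kb upstream of the low stretch at Hes1. A part of the second is shown (chr16:30061104-30061303, plus strand of GRCm38, the strand of the gene, CpGs in capitals).
Hes1 upstream: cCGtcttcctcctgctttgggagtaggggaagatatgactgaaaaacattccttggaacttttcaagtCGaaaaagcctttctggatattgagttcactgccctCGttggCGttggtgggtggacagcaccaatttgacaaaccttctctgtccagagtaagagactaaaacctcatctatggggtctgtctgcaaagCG

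Its 5 CpGs were at 60.9% and 59.8% in B cells of females and males and at 89.3% and 90.7% in T cells of females and males.

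**Figure D4:**
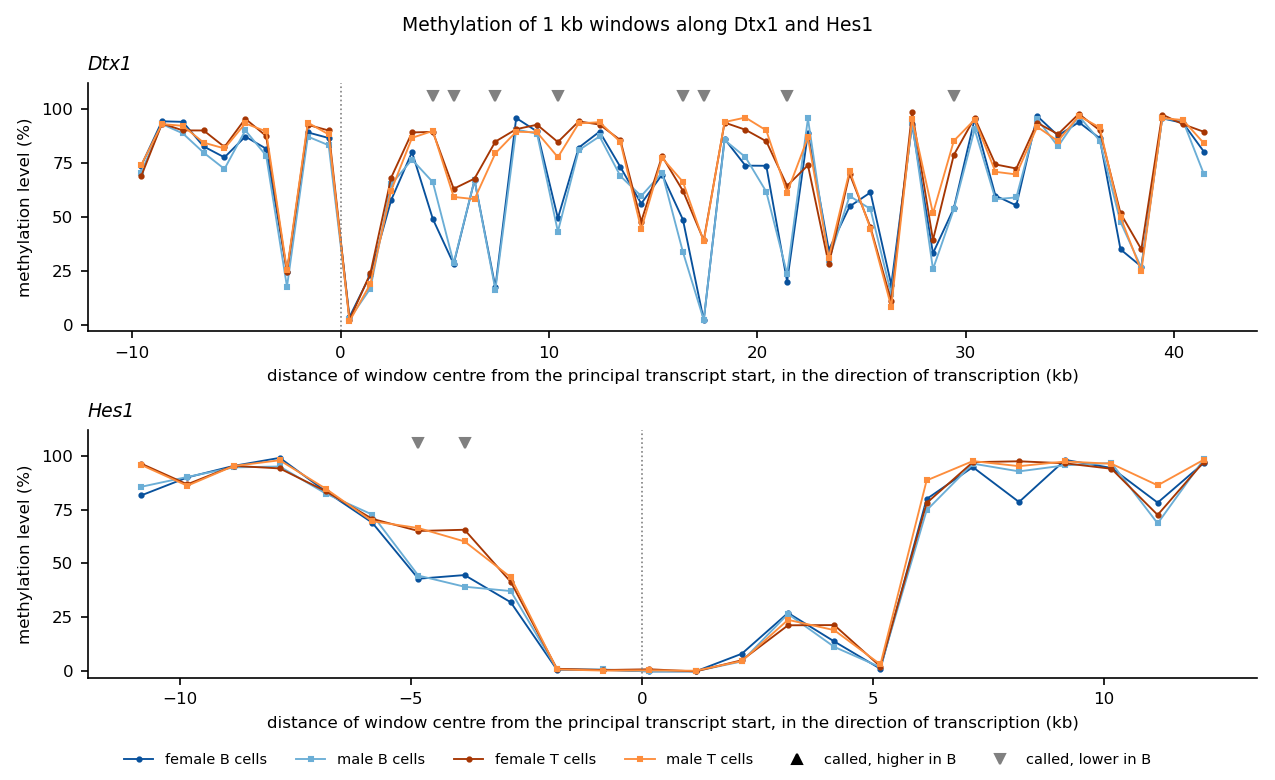
Methylation level (%) of 1 kb windows along Dtx1 (top) and Hes1 (bottom) against the distance of the window centre from the principal transcript start in kb, with a line for each of the 4 files and triangles pointing down at called windows, all of which were lower in B cells (8 at Dtx1, 2 at Hes1). B cell lines fall well below T cell lines at 7.43, 17.4 and 21.4 kb from the Dtx1 start. At Hes1 all lines are near 0 around the start and B cell lines lie below T cell lines upstream of it.

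Single CpGs were then examined in the named windows, to see how many positions carried each difference. These windows were chosen for their differences, so the counts are a description. In the Dtx1 exon 3 window, both B cell files were below both T cell files at 62 of 68 CpGs and above at 0. In the Dtx1 intron 2 window with the largest difference this held for 10 of 11 CpGs. In the Notch1 window of exons 25 and 26 both B cell files were above both T cell files at 23 of 26 CpGs, and in the Notch1 intron 2 window at chr2:26498001-26499000 at 20 of 21. The Notch4 window in Gpsm3 had 13 of 18 such CpGs, and its 5 other CpGs overlapped. In the Notch3 window 20 of 33 CpGs were lower and 3 were higher in both B cell files. In the Hes1 windows 9 of 16 and 6 of 10 CpGs were lower in both B cell files, and 2 were higher in each. Of the Notch2 windows in intron 1, those starting at chr3:98046001 and chr3:98025001 had 10 of 14 and 14 of 22 CpGs lower in both B cell files. The one starting at chr3:98032001 had 3 of 3, but its difference was largest at the CpG at chr3:98032379, which was at 7.69% and 8.33% in B cells and at 100% in both T cell files. The one starting at chr3:98028001 had only 2 of 6, and the difference rested mainly on the CpG at chr3:98028182, which was at 4.35% and 4.00% in B cells and at 81.0% and 63.2% in T cells. In the Notch2 intron 12 window 3 of 8 CpGs were lower in both B cell files, and the difference rested mainly on the CpGs at chr3:98110764 and chr3:98110838. In the Notch2 exon 15 window 4 of 7 CpGs were higher in both B cell files. A CpG in the named windows had 5 to 38 reads in a file.

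**Figure D5:**
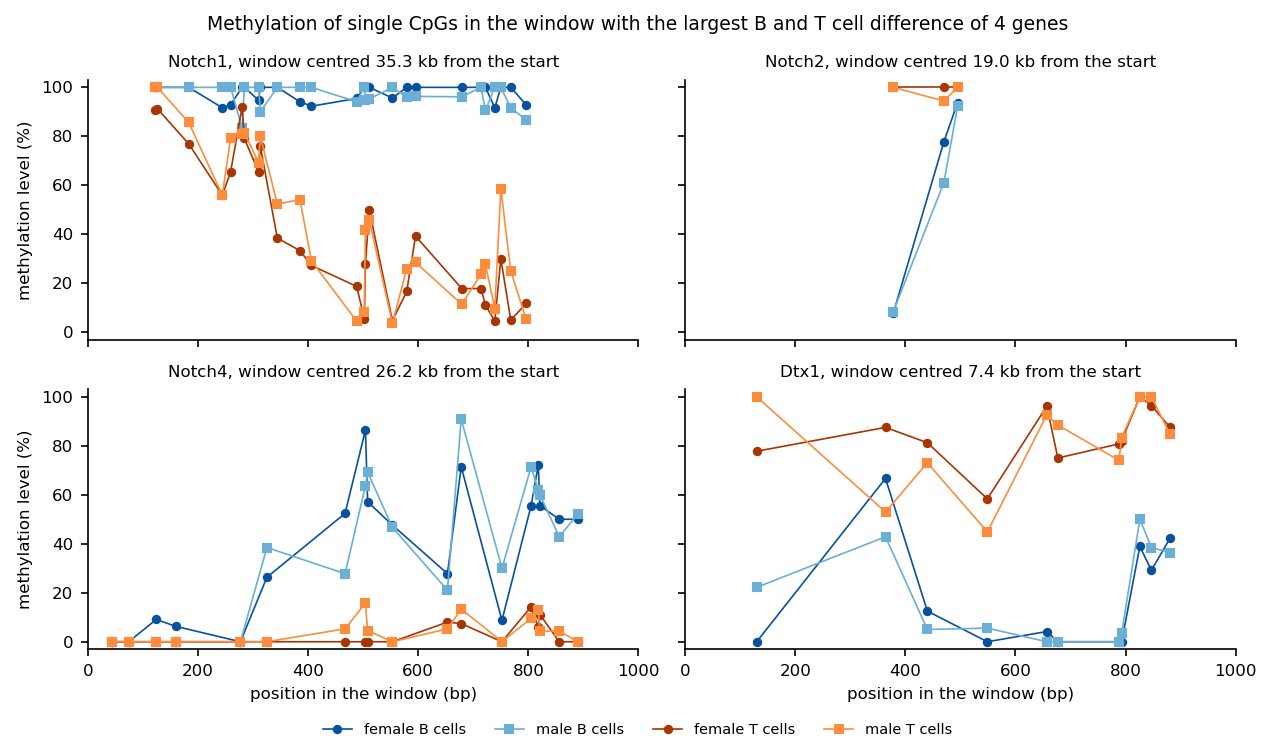
Methylation level (%) of each measured CpG in the window with the largest difference of Notch1, Notch2, Notch4 and Dtx1, against its position in the 1 kb window on the plus strand (bp), with a line for each of the 4 files. At Notch1 the T cell lines fall along the window while the B cell lines stay high, at Notch2 there are only 3 CpGs, at Notch4 the T cell lines stay low, and at Dtx1 the B cell lines lie near 0 over the middle of the window.

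Receptors and targets were compared by direction. At the 4 receptors 25 of 347 windows were called (7.20%), 11 higher in B cells and 14 lower. At the 2 targets 10 of 76 were called (13.2%), 0 higher and 10 lower. With limma 4 windows were called at Dtx1 and 0 at Hes1, beside 7 at Notch1, 4 at Notch2, 0 at Notch3 and 2 at Notch4. The split by direction was less one-sided with a threshold of 10 points, when 2 of 17 called windows were higher in B cells at Dtx1, 16 of 24 at Notch1 and 6 of 21 at Notch2. With windows of 500 bp it was 2 of 18, 16 of 24 and 5 of 19. Within the receptors, Notch1 and Notch2 accounted for 22 of the 25. The genes share no windows, and the windows of a gene are not independent of one another, so no test of receptors against targets was made. As a description, 1073 of 20683 protein-coding genes (5.19%) had 8 or more called windows in such a region, the number reached by Notch1, Notch2 and Dtx1, and 50.7% of genes had 0. The limit of 8 is the count of Dtx1 itself. Region length was not taken into account, and a longer region has more windows that can be called (157 tested at Notch2, 52 at Dtx1).

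Summed over whole gene regions the differences were smaller. Dtx1 was at 55.5% in female B cells, 51.8% in male B cells, 64.3% in female T cells and 63.9% in male T cells, so that both B cell files lay below both T cell files. The mean difference of -10.5 points had an unadjusted p of 0.000429 and an adjusted p of 0.0594, just past the limit of 0.05, with a limit of 5 points for gene regions. It was called by limma (adjusted p 0.00789), in the fit without a term for sex (adjusted p 0.0174), with a minimum of 10 reads per CpG (-12.0 points, adjusted p 0.00525) and over the gene body alone (-13.5 points, adjusted p 0.0181). Fisher's exact test within each sex, which compares 1 file with 1 file and covers counting error only, also passed its limit. Fits without 1 file had cell type as their only term, and the lone file was assumed to vary like the others. Without the female B cell file it was -12.3 points (adjusted p 0.00451), and without the male B cell file -8.64 points (adjusted p 0.0126). It was not called without the female T cell file (adjusted p 0.172) or without the male T cell file (adjusted p 0.158). Notch1 was at 67.7%, 68.0%, 63.8% and 64.2% in the same order (3.92 points, adjusted p 0.106). Notch2 was at 82.8%, 82.1%, 85.1% and 84.6% (-2.39 points, adjusted p 0.106). Notch3, Notch4 and Hes1 differed by -1.78, 1.78 and -0.0124 points (adjusted p 0.368, 0.366 and 0.991). In the model 0 of 6 gene regions were thus called, against 131 of 20621 (0.635%) over all genes. The model gave 3 of 6 (Notch1, Notch2 and Dtx1) an unadjusted p under 0.05, a count without a share over all gene regions beside it.

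The called windows were compared with the others in sequence. Pooled over the 6 genes, called windows held a median of 14 CpGs and windows not called a median of 13. Their pooled median GC content was 52.9% against 48.8%. Within genes it was 53.4% against 53.1% at Notch1, 47.4% against 46.6% at Notch2 and 47.6% for both at Hes1. It was 56.15% against 53.1% at Dtx1, and further apart at Notch3 and Notch4, which had 1 and 2 called windows. A median of 12.3% of the bases of called windows was soft-masked as repeats in the reference, against 16.8% of the others. The masked share was instead higher in called windows within Notch1 (10.8% against 9.2%) and Dtx1 (16.65% against 16.4%), and lower at the other genes. The letters GTGGGAA, the core bound by RBPJ, were searched on both strands. They occurred in 11 of the 35 called windows (31.4%), in 97 of the 423 windows of the 6 genes (22.9%) and in 17.4% of all windows tested. Among called windows this was 4 of 11 at Notch1, 2 of 11 at Notch2, 1 of 2 at Notch4 and 4 of 8 at Dtx1. Notch3 and Hes1 had 0. Among all windows it was 20 of 78 at Notch1, 26 of 157 at Notch2, 16 of 67 at Notch3, 12 of 45 at Notch4, 17 of 52 at Dtx1 and 6 of 24 at Hes1. The Notch1 intron 2 stretch printed above held 2 matches, and every other window stretch printed above held 0. The promoter stretches of Notch1, Notch2 and Notch4 held 0, and 6.33% of RefSeq promoter sequences (250 bases before to 50 after a start) held a match.

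Of the wider pathway, 50 other genes, also chosen with earlier results of these data known, were examined in groups. The model called 0 of their 50 promoters (0.928% over all genes), limma 0 and Fisher's exact test 0. The model gave 16 of them an unadjusted p under 0.05, a count without a share over all promoters beside it. The 2 with an adjusted p under 0.05 differed by far less than 20 points. Lfng, a glycosyltransferase that modifies Notch receptors, was at 0.410% in B cells and 2.67% in T cells, and the target Hes5 at 8.33% and 12.5%, as means of both sexes. In their gene regions the model called 156 of 3559 windows (4.38%), 67 higher and 89 lower in B cells, and 17 genes had 0. Its share was 2.12% of all windows and 2.82% of those near protein-coding genes. With limma, for which no share of all windows is given, 75 were called, 31 higher and 44 lower. The shares were 2.71% for 6 ligand genes, 1.95% for 8 modifiers of ligands or receptors, 4.56% for 9 protease genes, 4.88% for 7 genes of the nuclear complex, 4.71% for 5 nuclear repressors, 5.29% for 8 genes of receptor turnover and 4.26% for 7 further targets. The share of the ligands was close to that of windows near protein-coding genes. The proteases had 16 of 20 called windows lower in B cells, 7 of them at Adam17. The further targets had 7 of 8 lower, with 3 each at Hes5 and Heyl. The nuclear repressors had 6 higher and 15 lower, and the turnover genes 13 and 19. The nuclear complex had 35 higher and 26 lower, the modifiers 5 and 3, and the ligands 3 and 3.

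The most called windows were at Maml2, a coactivator of the Notch complex, with 21 higher and 9 lower of 316 windows. Its homologue Maml3 had 7 higher and 14 lower of 437, and Fbxw7, whose product marks the intracellular domain for degradation, had 6 higher and 7 lower of 167. Adam17, a protease gene, and Dtx4, a relative of Dtx1, each had 1 higher and 7 lower, of 69 and 49 windows. Rbpj, the DNA-binding partner of all 4 receptors, had 3 higher and 1 lower of 202. The promoter at its annotated start was highly methylated in all files, at 88.7% in B cells and 94.7% in T cells (-6.00 points, adjusted p 0.137). An annotated start can belong to a transcript other than the principal one, as it did at Notch1. The level around the principal start of Rbpj is not given here, so these values describe the annotated start only.

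Females and males were compared in the same windows. Of the 423 windows of the 6 genes, 0 were called different between the sexes, against 20 of 1950708 over all autosomes (0.00103%). The quasi-binomial model gave 23 of the 423 windows a p below 0.05 without adjustment, and limma, which also called 0, gave 20. These are counts without a share over all windows beside them, and nothing is read from them. Among the 35 windows called between B and T cells, the B cell files were apart at chr5:120707001-120708000 in intron 2 of Dtx1. They were at 49.0% in females and 66.1% in males, with 89.4% and 89.8% in T cells of females and males. In B minus T, the sexes were further apart at the window next to the CpG-rich one of Dtx1, as given above.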

How the data were processed

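Whole-genome bisulfite sequencing was analysed from 4 deposited files of CpG methylation, 1 for each combination of sex and cell type. Per the labels, the tools were Trim Galore, FastQC and Bismark 0.13.1 with the genome build mm10 (GRCm38); other settings and the removal of duplicates are not given in the sources used here. According to the labels part of every sample was oxidized, while the file names point to plain bisulfite libraries. The authors deposited a fraction of methylated reads with 3 decimals and a read count per CpG, with both strands merged and no CpG under 5 reads. Retained PCR duplicates would widen the counting error beyond the intervals given.

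Methylated reads were obtained by multiplying fraction and coverage and rounding, and in 100% of entries the rounded share differed from the deposited fraction by no more than 0.00101. CpGs with 5 or more reads in all 4 files were kept, 89.4% of the autosomal CpGs of the reference. Reads were summed over 1 kb windows and over promoters of 1 kb on both sides of the annotated gene start, each with 3 or more CpGs, and over gene bodies with 10 kb on both sides and 20 or more CpGs. A quasi-binomial logistic regression on cell type and sex was fitted to each region. The dispersion was squeezed across regions with limma 3.58.1 in R 4.3.3, with a prior taken from regions in which each file was expected to hold 5 or more reads of either kind. F tests were adjusted by the Benjamini-Hochberg method over all autosomal regions of a kind. The prior for windows had infinite degrees of freedom, so each window received the same dispersion of 1.31, and very small p-values overstate the certainty for a single window. The procedure was tested on simulated data.

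Calls needed an adjusted p under 0.05 together with a difference of means of 20 points for windows and promoters and of 5 points for gene regions. Up to 5 called windows per gene and direction were described individually, ranked by the difference in whichever sex showed less. Of the pathway list, genes with a called promoter and the 5 genes with the most called windows were named, ties included, except 1 that is not reported here, and Lfng, Hes5 and Rbpj were named after their values were seen. Alternatives were limma on log2 ratios of reads with a pseudocount of 1, Fisher's exact test within each sex, and other filters, thresholds and windows. The genes, lists and tests were chosen with earlier results of these data known.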

Additional observations from a re-analysis of the deposited data

Results flagged for a closer look

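At 5 of the 6 promoters and at 1 gene region the difference between B and T cells had opposite signs in females and in males; whether the sexes differ in it was not tested. At the Notch1 promoter the female difference (B minus T) was 2.11 points and the male difference -2.04 points. At Notch2 they were -0.25 and 0.527 points, at Notch3 -0.42 and 3.89 points, at Notch4 -5.73 and 0.583 points, and at the Hes1 promoter -0.163 and 0.304 points. Over the Hes1 gene region they were 0.559 and -0.584 points. The quasi-binomial model called none of these 6 regions.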

How the results depend on the processing

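The count of 35 called windows of the 6 genes changed by over 1.5 times under 3 alternatives: it was 78 with a threshold of 10 points, 74 of 733 with windows of 500 bp, and 17 with limma on log2 ratios. No share of all windows is given under these alternatives, so their counts cannot be set against a background. It was 28 to 37 under the other single changes (10 reads per CpG, shifted windows, Fisher's exact test, no term for sex, dispersion prior from all regions, no flank, deeply covered CpGs left out) and 31 to 39 when each file was left out. For the pathway list, whose alternatives were chosen after seeing the data, the count of 156 windows became 322, 291 and 75 under the same 3 changes and was 152 to 156 when each file was left out. Gene regions called rose from 0 to 1 (Dtx1) with 10 reads per CpG, with the gene body alone, with limma, with Fisher's exact test and without a term for sex, and were 0 to 1 when each file was left out, in fits with cell type as the only term. Over all these alternatives the adjusted p of the Dtx1 region ranged from 5.00e-56 (Fisher's exact test, which covers counting error only) to 0.172 (without the female T cell file). The cause was not tested. Of 251 values for single windows under alternatives, 12 lost the call, 9 of them with limma. With 10 reads per CpG, 2 of the 23 windows could not be fitted. While 0 changed direction, only the filters on reads per CpG could have reversed one. The other tests, models and the threshold of 10 points keep the same difference. Leaving out a file cannot reverse it either, since the B and T cell files of these windows did not overlap. Several differences at promoters and gene regions that were not called changed sign. With 10 reads per CpG, the Notch2 and Hes1 promoters were at -1.37 and -0.107 points. With 500 bp on both sides of the start, the Notch1, Notch2 and Dtx1 promoters were at -4.52, -0.272 and -0.472 points, and at the principal start, an alternative added after seeing the data, Hes1 was at -0.154 points. With the gene body alone, the Notch4 and Hes1 regions were at -0.186 and 0.137 points. When each file was left out, promoter differences ranged from -2.80 to 2.87 points at Notch1, -0.706 to 0.983 at Notch2, -0.183 to 3.65 at Notch3, -6.36 to 1.22 at Notch4 and -0.0575 to 0.198 at Hes1, and the Hes1 region from -0.391 to 0.367. The groups share no replicate numbers, so none could serve as a block; B and T cells were compared within sex by the term for sex. With 1 file per group there is no measure of the spread between pools of one kind.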
